A study of Mus musculus with 12 samples.

Results

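ERK1, the kinase encoded by Mapk3, and 8 genes for proteins that switch ERK signalling off were followed in the prefrontal cortex (PFC) of mice that differed in their microbiota. The 9 genes were taken by name from the 41388 genes of the count table: the kinase Mapk3, the dual-specificity phosphatases Dusp1, Dusp4, Dusp5 and Dusp6, the Sprouty genes Spry2 and Spry4, and the Spred genes Spred1 and Spred2. All 9 had enough counts to be tested in every comparison. The 12 libraries came from hand-dissected medial PFC of male Swiss Webster mice aged 10 weeks, with 3 groups of 4 libraries each. The conventionally raised group (CON) lived in the standard animal unit with its microbes, and the germ-free group (GF) in isolators without any. The exGF group began life germ-free and was colonized from postnatal day 21 on, at weaning, by being moved into the unit of the CON group. All groups ate the same autoclaved diet. Only GF mice stayed in isolators, so that microbes and housing cannot be told apart in comparisons with GF. Each library was made from RNA pooled from 2 to 3 animals, so that the spread given here is a spread between pools. The columns of the exGF libraries are called GFR1 to GFR4 and were not matched to single exGF samples.

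Growth factors, neurotrophins and calcium entry activate ERK through a relay of Ras, Raf and MEK. Active ERK phosphorylates targets in the cytoplasm and the nucleus and turns on a set of early genes, and among these are genes for its own inhibitors. Dual-specificity phosphatases take the phosphates off the activation loop of MAP kinases, whereas Sprouty and Spred proteins act further up, at the level of Ras and Raf. In neurons, several of these inhibitor genes are induced within minutes to hours of synaptic activity, and their mRNA is often read as a trace of recent ERK signalling. The mRNA of the kinases themselves says little about their activity, which is set by phosphorylation.

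The promoters of 3 of the phosphatase genes are shown because the results below turn on phosphatase genes and because these upstream regions differ in the motifs they hold. Of these, only Dusp6 passed the test in GF. The sequences are from RefSeq (GRCm38.p6), which gave a promoter for 6 of the 9 genes. They start 250 bases before the RefSeq transcription start and end there, or sooner where a GENCODE exon on the same strand begins. For Dusp1 the GENCODE gene (26505590 to 26562128, minus strand) reaches further upstream, so that the printed stretch lies within its span. Capitals mark the matches to a cyclic AMP response element (CRE, TGACGTCA) or its shorter core TGACG, to a CArG box (the binding motif of serum response factor), or to the core CGGAA of ETS factors, on either strand. The first 2 of these motifs overlap, since each CRE holds the shorter core on both strands.
Dusp6, chr10:99262981-99263230, plus strand: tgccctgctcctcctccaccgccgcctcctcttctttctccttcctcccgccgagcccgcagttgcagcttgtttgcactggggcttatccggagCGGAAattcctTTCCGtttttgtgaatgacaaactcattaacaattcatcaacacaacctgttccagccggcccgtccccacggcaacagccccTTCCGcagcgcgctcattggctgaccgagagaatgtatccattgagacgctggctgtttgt
Dusp1, chr17:26508520-26508722, minus strand: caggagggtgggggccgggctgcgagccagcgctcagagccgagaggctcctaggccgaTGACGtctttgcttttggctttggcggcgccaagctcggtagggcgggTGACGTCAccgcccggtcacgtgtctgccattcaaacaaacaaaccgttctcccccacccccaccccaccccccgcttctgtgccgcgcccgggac
Dusp5, chr19:53528895-53529108, plus strand: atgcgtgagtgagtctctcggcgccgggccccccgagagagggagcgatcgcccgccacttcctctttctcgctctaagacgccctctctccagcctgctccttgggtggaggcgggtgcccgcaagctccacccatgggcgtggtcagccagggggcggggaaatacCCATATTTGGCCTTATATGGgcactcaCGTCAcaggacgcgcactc

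Over the whole window of 300 bases, from 250 before to 50 after the start, the Dusp1 promoter held 1 CRE, which 1.79% of 32851 RefSeq promoters hold. Its first base lay 143 bases before the start. The Dusp5 promoter held 2 CArG boxes side by side, 82 and 72 bases before the start, and 1.63% of all promoters hold at least 1. The Dusp6 promoter held neither of these and had 3 matches to the ETS core, which 29.9% of promoters hold at least once. The Spred1 and Spred2 windows held 2 matches each, those of Spry2 and Dusp5 held 1 each and that of Dusp1 none. This short core was added to the search after the sequences had been seen. The AP-1 motif TGANTCA (7.81% of all promoters), the longer ETS motif CCGGAAGT (3.89%) and the EGR motif GCGGGGGCG (2.91%) were not found in these letters in any of the 6 promoters. In the Spred2 window there was 1 match to TGACG, a core that 20.8% of promoters hold, and the Spred1 and Spry2 windows had none.

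Read pairs counted on genes numbered 22757169 to 29134760 in a CON library, 13280926 to 23465074 in a GF library and 22702599 to 28615407 in an exGF library. Levels are given in CPM (counts as a share of the TMM-scaled library size, over all 12 libraries), as mean ± SD of 4 libraries. The summed level of 6 neuronal markers was 6325 to 8413 CPM, and no marker of the 9 cell type and tissue lists was at 0 in any library. The sum of 6 oligodendrocyte markers was 2017 to 2492 CPM in CON, 3122 to 5263 in GF and 1999 to 3361 in exGF, and 4 of the 6 were called higher in GF. The neuronal sum was 6325 to 7214 CPM in CON and 7423 to 8395 in GF, and 2 of 5 meningeal markers were called lower in GF. The sum of 5 striatal markers was high in CON replicate 2 (225 CPM) and GFR4 (235 CPM), where the other 10 libraries had 115 to 150 CPM. Over all 12 libraries 5 astrocyte markers summed to 1037 to 1285 CPM and 5 endothelial markers to 203 to 251 CPM. The sum of 5 microglial markers was 284 to 326 CPM in CON, 262 to 300 in GF and 251 to 268 in exGF. None of these astrocyte, endothelial and microglial markers was called. In exGF against CON, 4 of 5 microglial and 4 of 5 meningeal markers were lower at an unadjusted p under 0.05 (edgeR's quasi-likelihood test). Of all tested genes, 2.87% were lower at this threshold. The part of these cell types in the results on ERK genes was not tested, and in bulk tissue fewer cells of a type and less RNA per cell cannot be told apart.

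Compared per length of exon, Mapk3 mRNA was more abundant than the mRNA of any inhibitor gene here, which depends on the length used. In CON libraries Mapk3 had 79.6 ± 10.6 RPKM (CPM divided by exon length in kilobases). Spry2 (23.3 ± 2.71 RPKM), Dusp6 (22.7 ± 2.50), Spred1 (22.1 ± 1.503) and Spred2 (21.7 ± 1.80) followed, and these neighbours did not differ beyond their spread. Dusp1 stood below them with 9.30 ± 2.33 RPKM. The 3 rarest were Dusp5 (3.22 ± 0.448 RPKM), Spry4 (2.86 ± 0.151) and Dusp4 (2.11 ± 0.446). Dusp5 and Spry4 overlapped, whereas every CON library had less Dusp4 than Spry4.

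In GF the order changed at 1 place. Dusp6 rose to 34.3 ± 2.01 RPKM, and its 4 GF libraries (32.3 to 36.8 RPKM) lay above all 4 of Spry2 (26.6 to 29.1 RPKM). Divided by coding length in place of exon length, Mapk3 had 158 CPM per kilobase in CON and 116 in GF, where Spred1 had 112 and 132. Also by coding length, Spred1 and Spred2 (76.3 CPM per kilobase in CON) stood above Dusp6 (62.2) and Spry2 (51.5), and Spry4 (15.1) above Dusp5 (6.91), so that the order among these genes depends on the length used.

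**Figure D1:**
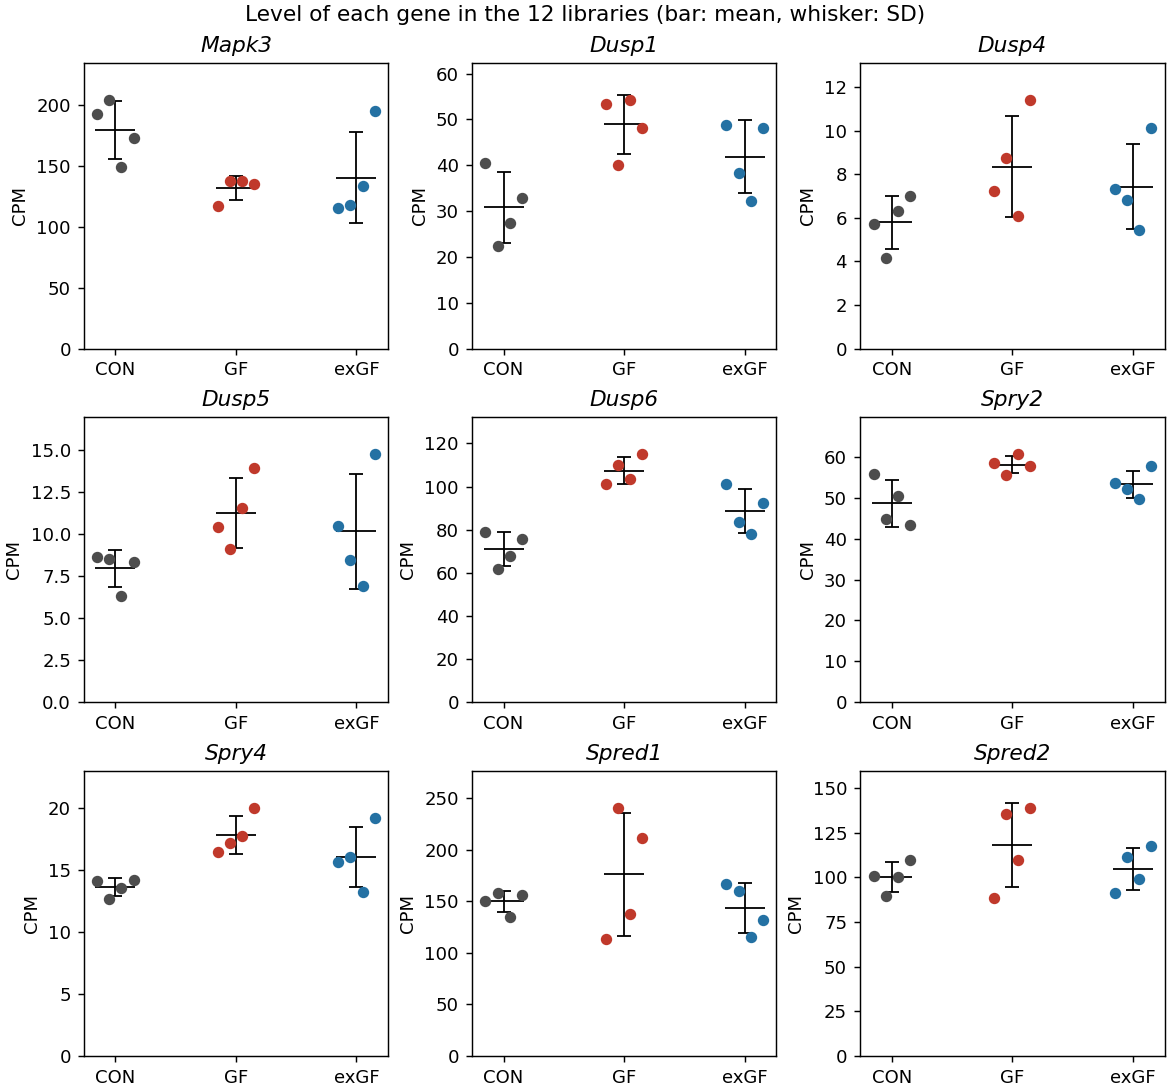
Level (CPM, linear axis from 0) of each of the 9 genes in the 4 CON, 4 GF and 4 exGF libraries; points are libraries, bars the mean and whiskers the SD. The GF points of Dusp6 (101 to 115 CPM) lie above all CON points (61.6 to 79.0 CPM), and those of Mapk3 (117 to 138 CPM) below all CON points (149 to 204 CPM).

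The first question was how the PFC of mice without microbes differed from that of conventional mice. In GF, the mRNA of Dusp6 rose and that of 7 other inhibitor genes had fold changes above 0 without passing the test, whereas Mapk3 had the only one below 0. Of the 9 genes, 1 was called higher at an adjusted p under 0.1 (edgeR's quasi-likelihood test, adjusted by the Benjamini-Hochberg method across all genes) and none lower, where 0.116% of 15542 tested genes were called higher and 0.135% lower. An unadjusted p under 0.05 was reached by 7 of the 9, 6 higher and 1 lower, against 8.69% of all tested genes (4.75% higher and 3.94% lower). The median log2 fold change was 0.39 for the 9 genes and 0.01 for all tested genes. The study names Dusp1, Dusp6, Spry4 and Mapk3 among the genes changed in these same libraries, so that their directions are not independent evidence.

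Dusp6 (ENSMUSG00000019960, GRCm38 chromosome 10 from 99263231 to 99267489) encodes the cytoplasmic phosphatase that is selective for ERK, and is a classical ERK target gene. It had 79.0, 61.6, 68.0 and 75.8 CPM in CON replicates 1 to 4 and 101, 110, 104 and 115 CPM in GF replicates 1 to 4. All GF libraries were above all CON libraries, a separation upward that 2.53% of tested genes had. Its level rose by 0.60 on the log2 scale (SE 0.09, 4 libraries per group, edgeR's quasi-likelihood test, adjusted p = 0.0168), and Dusp6 ranked 14 of 15542 genes by p. It was called under each of the 18 alternative settings, with an adjusted p from 2.77e-06 (DESeq2) to 0.0824 (without CON replicate 3).

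Dusp1 (ENSMUSG00000024190, chromosome 17 from 26505590 to 26562128) encodes a nuclear phosphatase of p38, JNK and ERK, and is an immediate early gene. Its CON libraries had 40.4, 22.5, 27.3 and 32.9 CPM, and its GF libraries 53.3, 40.0, 54.2 and 48.2 CPM. Only CON replicate 1 reached into the GF range, just above GF replicate 2. Its log2 fold change of 0.67 (SE 0.16) was the largest of the 9 genes and was not called (adjusted p = 0.154, edgeR's quasi-likelihood test). Of the 18 alternative settings 5 called it. Among these were the fits without CON replicate 1 (adjusted p = 0.0453, same test) or without GF replicate 2 (0.0975). It was also called with no filter on low counts (0.00454) and by DESeq2 (0.0133). The other 13 settings did not call it, with an adjusted p up to 0.413 (edgeR, without GF replicate 3).

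Dusp5 and Dusp4 encode nuclear phosphatases, and Dusp5 is selective for ERK. Dusp5 (ENSMUSG00000034765, chromosome 19 from 53529109 to 53542431) had 8.65, 8.53, 6.31 and 8.34 CPM in CON and 10.4, 9.08, 11.5 and 13.9 CPM in GF. Here too the groups did not overlap, and the log2 fold change was 0.50 (SE 0.16, adjusted p = 0.336 by edgeR's quasi-likelihood test). The annotation used here places an antisense gene, AC137853.2, on 22.1% of the exon bases of Dusp5, and since strand was not used in counting, reads of both cannot be told apart. Dusp4 (ENSMUSG00000031530, chromosome 8 from 34807297 to 34819894) went from 4.14 to 7.01 CPM among CON libraries and from 6.07 to 11.4 among GF libraries, with GF replicate 3 inside the CON range. Its log2 fold change was 0.53 (SE 0.21, unadjusted p = 0.0223 and adjusted p = 0.463 by edgeR), and it was 0.34 without GF replicate 4 (adjusted p = 0.794, same test).

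Among the Sprouty genes, Spry4 (ENSMUSG00000024427, chromosome 18 from 38586247 to 38601415) had 14.1, 12.6, 13.5 and 14.2 CPM in CON and 16.4, 17.1, 17.7 and 19.98 CPM in GF. No GF library reached down to the CON libraries, which were close together (SD 0.717 CPM). Spry4 had a log2 fold change of 0.39 (SE 0.11, adjusted p = 0.225 by edgeR's quasi-likelihood test), and of the alternatives only DESeq2 called it (adjusted p = 0.0800). Spry2 (ENSMUSG00000022114, chromosome 14 from 105891947 to 105896819), the other Sprouty inhibitor, had 48.7 ± 5.66 CPM in CON and 58.1 ± 2.12 in GF. Its GF libraries (55.6 to 60.7 CPM) overlapped only CON replicate 1 (55.8 CPM), with a log2 fold change of 0.26 (SE 0.09, adjusted p = 0.424 by the same edgeR test).

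The Spred genes, whose products bind Ras regulators at the membrane, differed least between the groups relative to their spread. Spred1 (ENSMUSG00000027351, chromosome 2 from 117121374 to 117182279) had 151, 158, 135 and 156 CPM in CON but 114, 240.5, 138 and 211 CPM in GF. GF replicates 2 and 4 were above every CON library, GF replicate 1 was below every CON library and GF replicate 3 lay among them. Spred1 had a log2 fold change of 0.23 (SE 0.18, adjusted p = 0.760 by edgeR, 95% interval -0.15 to 0.62). Spred2 (ENSMUSG00000045671, chromosome 11 from 19924375 to 20024026) showed the same pair of high libraries, with 136 CPM in GF replicate 2 and 139 in GF replicate 4 against 88.5 and 110 in the others. Its CON libraries had 89.4 to 110 CPM, and the log2 fold change was 0.24 (SE 0.13, adjusted p = 0.619 by edgeR, 95% interval -0.03 to 0.51). Without GF replicate 4 the value was 0.15 for Spred2 and 0.13 for Spred1, and for Spred1 it was 0.04 without GF replicate 2 and 0.38 without GF replicate 1.

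The level of Spred1 followed the share of read pairs that aligned to several places, a property of the library. This share was 13.9% to 17.3% in CON, 13.7% to 19.2% in GF and 13% to 17.7% in exGF, and GF replicate 2 had the highest share and the highest Spred1. Over 12 libraries Pearson's r was 0.84 (permutation test, two-sided, p = 0.00029, adjusted over the 9 genes 0.00261) and Spearman's rho was 0.87 (permutation p = 0.00051, adjusted 0.00459). It was 0.75 without the 2 libraries farthest from the median share and 0.82 after removal of the group means. For the other 8 genes r ran from 0.02 to 0.40, with adjusted permutation p-values of 0.639 or more, and the highest rho was 0.57 for Dusp6 (adjusted permutation p = 0.266). For genes outside the 9 the correlation with this share was not computed, so that it is not known how many follow it as closely. When this share was added to the edgeR model, the log2 fold change of Spred1 in GF was 0.02 (adjusted p = 0.986) and that of Dusp6 0.57 (adjusted p = 0.0374).

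**Figure D2:**
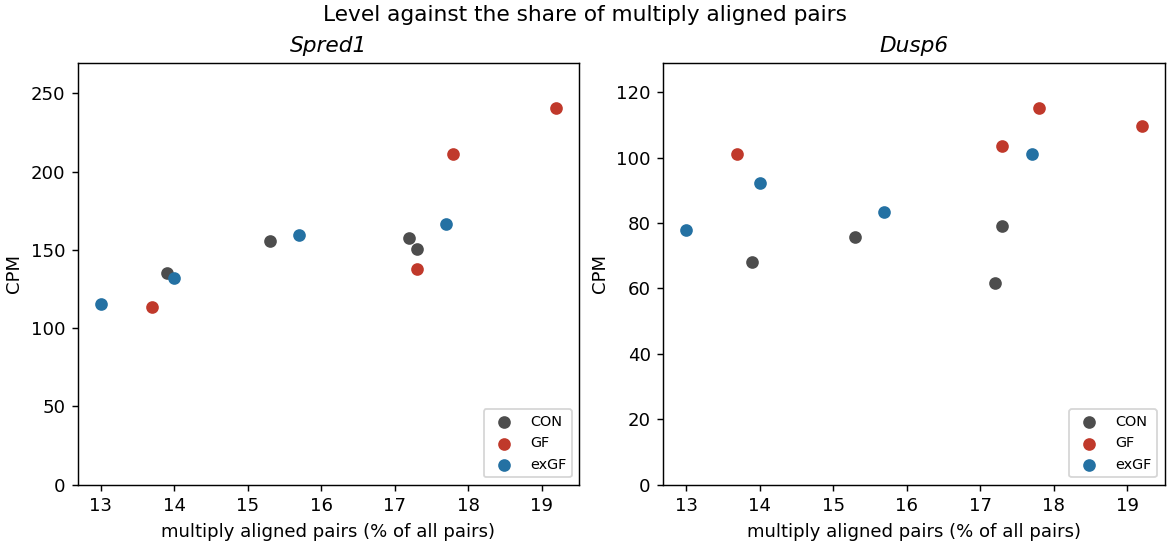
CPM of Spred1 (left) and Dusp6 (right) against the share of multiply aligned read pairs (%), 1 point per library and coloured by group. Higher shares go with higher Spred1 (r = 0.84 over 12 libraries), whereas the GF points of Dusp6 lie above the CON points at low and high shares.

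Mapk3 (ENSMUSG00000063065, chromosome 7 from 126759601 to 126765819) had 192, 204, 149 and 173 CPM in CON and 117, 138, 138 and 135 CPM in GF. All GF libraries were below all CON libraries, a separation downward that 2.55% of tested genes had. It had a log2 fold change of -0.45 (SE 0.10, 95% interval -0.66 to -0.23), and it was not called (adjusted p = 0.144, edgeR's quasi-likelihood test). Of the 18 alternative settings 4 called it. The adjusted p was 0.0824 without CON replicate 3, 0.0100 by DESeq2 and 0.00966 with no filter on low counts. It was 0.0282 in edgeR with the multiply aligned share in the model. The other 14 settings did not call it, with an adjusted p up to 0.343 in a single edgeR fit of all 12 libraries.

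**Figure D3:**
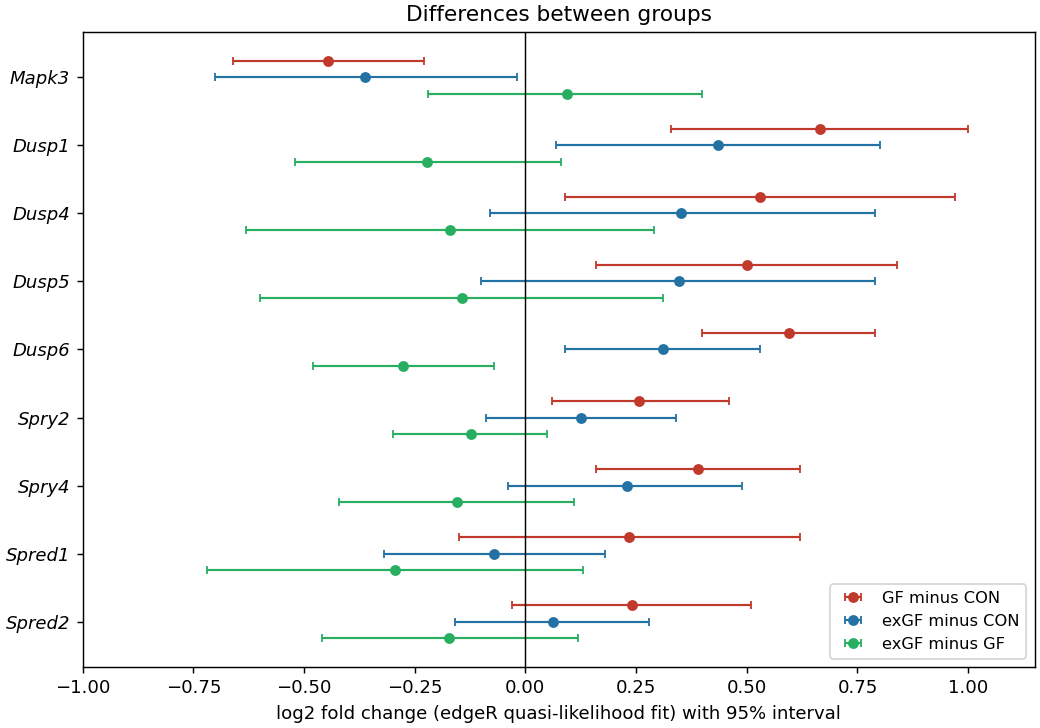
log2 fold changes with 95% intervals from edgeR's quasi-likelihood fits of each pair of groups, for each gene. In GF minus CON the point of Mapk3 lies at -0.45 and those of the 8 inhibitor genes between 0.23 and 0.67, and the exGF minus CON points of the phosphatase and Sprouty genes lie between 0 and the GF points.

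The second question was how the PFC of mice colonized after weaning differed from that of conventional mice. In exGF none of the 9 genes was called against CON by edgeR's quasi-likelihood test, where 0.0696% of 15813 tested genes were called (0.0253% higher and 0.0443% lower), and DESeq2 and limma-voom called none of the 9 either. Of the 9 genes, Dusp1 and Dusp6 were higher and Mapk3 lower at an unadjusted p under 0.05, against 5.33% of all tested genes (2.46% higher and 2.87% lower). No gene of the 9 had exGF libraries that were all above or all below CON, as 1.78% and 1.52% of tested genes had. Both comparisons use the same CON libraries, so that their directions are not independent of each other.

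Dusp6 had 101, 83.4, 77.8 and 92.3 CPM in GFR1 to GFR4. GFR3 was just below the highest CON library (79.0 CPM) and GFR1 just below the lowest GF library. Relative to CON it differed by log2 0.31 (SE 0.10), with an unadjusted p of 0.0102 and an adjusted p of 0.698 by edgeR's quasi-likelihood test. Dusp1 had 48.7, 38.2, 32.3 and 48.1 CPM, with a log2 fold change of 0.44 (SE 0.17, unadjusted p = 0.0239, adjusted p = 0.825 by edgeR). GFR1 and GFR4 were above all CON libraries, and the other 2 lay in the CON range.

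In Mapk3 the exGF libraries split, with 116, 118 and 134 CPM in GFR1 to GFR3 and 195 CPM in GFR4. The first 3 were below all CON libraries and close to GF, and GFR4 was among the highest CON values. Relative to CON, Mapk3 stood at log2 -0.36 (SE 0.16, edgeR's adjusted p = 0.903) and at -0.54 without GFR4 (adjusted p = 0.229, same test). GFR4 also had the highest exGF levels of Dusp4 (10.1 CPM), Dusp5 (14.7 CPM), Spry2 (57.8 CPM), Spry4 (19.2 CPM) and Spred2 (118 CPM). Without it the log2 fold change from CON was 0.12 instead of 0.35 for Dusp5, 0.18 instead of 0.35 for Dusp4 and 0.15 instead of 0.23 for Spry4. For Dusp4 it was 0.23 without CON replicate 2. GFR4 and CON replicate 2, which hold the highest Mapk3 of their groups, are the libraries with high striatal markers named above. Without both, Mapk3 was at -0.48 (unadjusted p = 0.00121, adjusted p = 0.408 by edgeR), Dusp6 at 0.25, Dusp1 at 0.26, and again none of the 9 genes was called.

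Spry2 had 53.3 ± 3.41 CPM and Spry4 16.0 ± 2.44 CPM in exGF, with log2 fold changes from CON of 0.13 (95% interval -0.09 to 0.34) and 0.23 (-0.04 to 0.49). For Spred1 (143 ± 23.96 CPM) and Spred2 (105 ± 11.8 CPM) the values were -0.07 (-0.32 to 0.18) and 0.06 (-0.16 to 0.28). With single libraries left out the value of Spry2 ran from 0.07 without CON replicate 4 to 0.21 without CON replicate 1. The 95% intervals hold 0 and also hold changes as large as those seen in GF for Spry2 and Spry4.

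**Figure D4:**
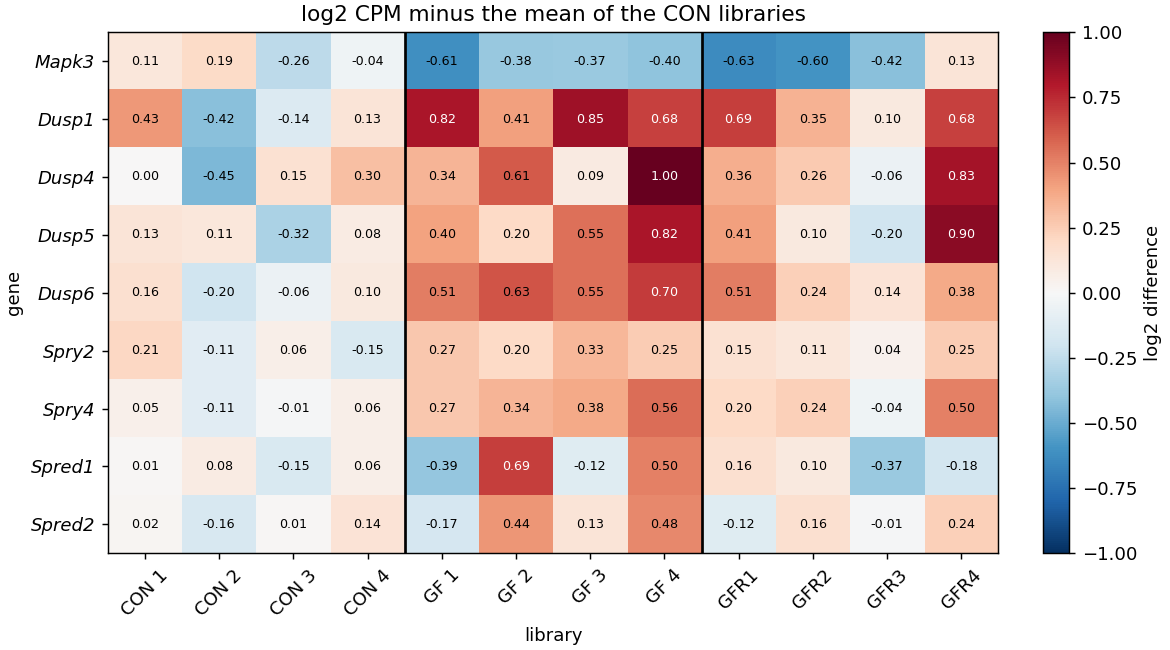
log2 CPM of each gene (rows) in each library (columns) minus the mean of the CON libraries, with the value in each cell and red for higher. Dusp6 is above the CON mean in all GF libraries (0.51 to 0.70) and all exGF libraries (0.14 to 0.51), Mapk3 is below it in all GF libraries and in GFR1 to GFR3, and GFR4 differs from the other exGF columns in Mapk3 (0.13) and Dusp5 (0.90).

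The third comparison set the colonized mice against those that stayed germ-free. By edgeR's quasi-likelihood test 0 of the 9 genes were called between exGF and GF, where 0% of 15569 tested genes were, and DESeq2 and limma-voom also called 0 of the 9. Dusp6 alone reached an unadjusted p under 0.05, and was lower in exGF, against 6.65% of all tested genes (3.30% higher and 3.35% lower). The 4 exGF libraries of Dusp6 were all below the 4 GF libraries, a separation that 1.55% of tested genes had in this direction and 1.77% in the other. The difference was -0.28 on the log2 scale (SE 0.09, unadjusted p = 0.0114, adjusted p = 0.736 by edgeR), so that Dusp6 in exGF was above CON and below GF by similar amounts, with neither difference called. Mapk3 differed by 0.09 (95% interval -0.22 to 0.40), and by -0.11 without GFR4. For the other 7 genes the fold change was below 0, from -0.30 for Spred1 to -0.12 for Spry2, and every interval held 0. Several of these 7 values moved by over 1.5 times when 1 library was left out, among them Spred1 (-0.11 without GF replicate 2) and Dusp1 (-0.12 without GFR3).

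Within groups, some of the genes varied together from library to library. After removal of the group means, Pearson's r of log2 CPM over 12 libraries was 0.82 for Dusp5 and Spry4 and 0.81 for Dusp4 and Spry4. It was 0.75 for Dusp1 and Dusp6 and 0.69 for Dusp4 and Dusp6. Dusp4 and Spred2 had 0.68, as did Dusp1 and Spry2, and Spred1 and Spred2 had 0.66. For Mapk3 r ran from 0.05 with Dusp6 and Spred1 to 0.48 with Spry4 and 0.65 with Dusp5, and between Spry2 and Spred1 it was -0.20. GFR4 had the largest deviation from its group mean in both Mapk3 (log2 0.507) and Dusp5 (0.595). The points share their libraries and their depth, and these values are descriptions. The spread itself differed between genes: the coefficient of variation among GF libraries was 5.87% for Dusp6 and 3.66% for Spry2 but 34% for Spred1.

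The genes whose log2 CPM followed that of Dusp6 most closely over the 12 libraries, among 16031 others, were Ciart (Pearson's r 0.92), Tsc22d3 (0.92), Inpp5f (0.91), Prss23 (0.91) and Pabpc1 (0.90). Without the 2 libraries farthest from the median of Dusp6, r was 0.85 to 0.91. For Mapk3 they were Crym (0.96), Fxyd6 (0.94), Rnf41 (0.94), Col23a1 (0.92) and Tmem130 (0.91), with r of 0.88 to 0.94 without CON replicate 2 and GFR4. These correlations include the differences between groups and are given without a test.

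The other genes of the pathway were read from 9 lists written from general knowledge. Of 118 genes, 114 were tested between CON and GF, and 3 were called higher and 0 lower (edgeR's quasi-likelihood test, against 0.116% and 0.135% of all genes). All 3 belong to the 14 activity-induced genes and were picked by the study from the same libraries, so that their direction is not independent evidence: Nr4a2, an orphan nuclear receptor, rose by log2 1.02 (SE 0.18), the kinase gene Sik1 by 0.82 (SE 0.15) and the early gene Ier5 by 0.49 (SE 0.08). In this list 9 of 14 had an unadjusted p under 0.05 with a higher level, against 4.75% of all tested genes, and the median was 0.41. In a single edgeR fit of all 12 libraries, and without CON replicate 3, none of the 114 genes was called, and 8 were without CON replicate 1. Only 1 was called without GF replicate 3 and 1 without GF replicate 4, and 5 without GF replicate 2.

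The relay above ERK and its substrates had fold changes around 0. Among 26 genes of the relay the median log2 fold change in GF was 0.05. Among 16 substrates and downstream kinases the median was 0.01, with 0 unadjusted p under 0.05, and among 10 receptors it was -0.03. None of these 52 genes was called by edgeR. The 6 other MAP kinase phosphatases, among them Dusp7 (66.9 ± 6.82 CPM in CON, 73.5 ± 4.45 in GF), had a median of 0.07 and no unadjusted p under 0.05. Spry1 and Spred3 had log2 fold changes of 0.13 and -0.02.

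Outside the 9 genes, 4 genes of these lists that edgeR did not call had GF libraries that did not overlap CON at an unadjusted p under 0.05. With the 3 called genes, 5 of the 114 lay all above CON, and 3 lay all below at any p, against 2.53% and 2.55% of all tested genes, so that the downward count was near the background. Of those 4 genes, DESeq2 called Nr4a1, Klf4 and Dusp26. Nr4a1, a relative of Nr4a2, had 88.5 ± 19.8 CPM in CON and 136 ± 11.8 in GF (adjusted p = 0.125 by edgeR's quasi-likelihood test), and the transcription factor gene Klf4 had 5.07 ± 0.676 and 9.71 ± 3.68 CPM (0.154). In the other direction, the atypical phosphatase gene Dusp26 had 73.2 ± 6.22 CPM in CON and 58.6 ± 3.87 in GF (adjusted p = 0.239, same edgeR test). Il17rd, which encodes a membrane antagonist of fibroblast growth factor signalling through ERK, had 8.72 ± 1.63 and 6.69 ± 0.228 CPM (0.470). Among the 16 other ERK-induced genes the median log2 fold change in GF was 0.12, and 4 were higher and 1 lower at an unadjusted p under 0.05, against 4.75% and 3.94% of all tested genes.

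In exGF none of the 114 genes was called against CON or against GF by edgeR's quasi-likelihood test. Of these, 6 had an unadjusted p under 0.05 against CON (5 higher and 1 lower) and 9 against GF (1 higher and 8 lower). Among all tested genes these shares were 5.33% (2.46% higher and 2.87% lower) and 6.65% (3.30% higher and 3.35% lower). Both totals were near the background, but the split by direction was uneven. Of the 8 lower against GF, 4 were among the 14 activity-induced genes. DESeq2 and limma-voom called 0 of the 114 in both comparisons. The median of the 14 activity-induced genes was 0.21 against CON and -0.26 against GF.

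**Figure D5:**
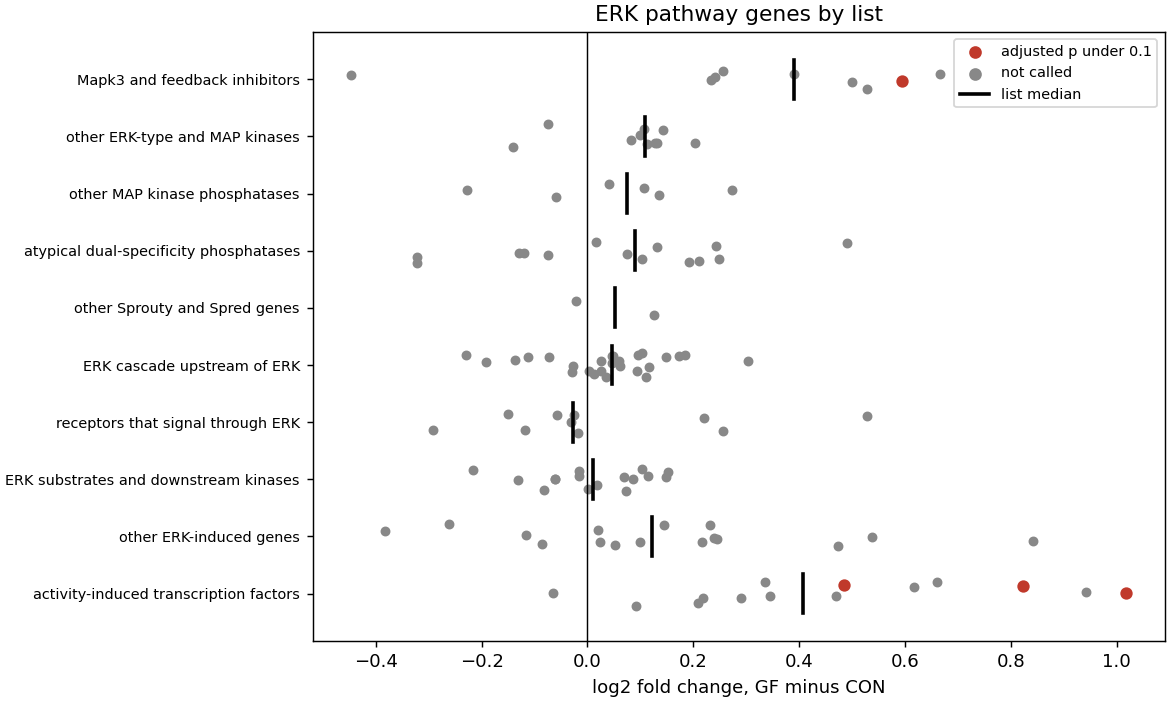
log2 fold change in GF minus CON of the 9 genes and of 114 other pathway genes by list; each point is a gene, red points were called by edgeR at an adjusted p under 0.1, and black bars are list medians. The medians of the 9 genes (0.39) and of the activity-induced list (0.41) lie to the right of the other lists (-0.03 to 0.12).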

How the data were processed

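PolyA-enriched RNA of the PFC was sequenced as read pairs. After trimming in Trimmomatic 0.32 the authors mapped reads with STAR (genome GRCm38), and HTSeq-count 0.6.0 assigned pairs to Ensembl genes regardless of strand. The deposited values are these raw counts, not normalized. Counts not assigned to a gene (4.57% to 7.31% of each library outside genes, 1.10% to 1.32% ambiguous, 13% to 19.2% multiply aligned) were left out of library sizes and tests. Columns GFR1 to GFR4 were read as exGF, the one group whose samples had no other column.

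Each pair of groups was fitted with edgeR 4.0.16 (R 4.3.3) over all genes, after filterByExpr with default settings and TMM, by the quasi-likelihood test. P-values were adjusted by the Benjamini-Hochberg method, and a gene was called below 0.1, as in the study. Alternatives were RLE and upper-quartile scaling, an unfiltered table, a minimum of 10 counts per library, DESeq2 1.42.0, limma-voom (limma 3.58.1), a single fit of 12 libraries, a replicate block, a threshold of 0.05 and each library left out. The covariate for multiply aligned pairs and the removal of both libraries with high striatal markers were chosen after seeing the data. Exon lengths and positions came from GENCODE vM21 (GRCm38), log2 CPM used a prior count of 1, and correlations were tested with 100000 permutations.

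All 9 genes are named. Some genes of the pathway lists are counted in their lists and not reported here by name. Other genes are named where they were called, where their GF or exGF libraries did not overlap CON at an unadjusted p under 0.05, or as the most alike genes, and Dusp7, Spry1 and Spred3 were picked as examples after their values were seen. The genes and lists were chosen with earlier results of these data known. On simulated data for CON and GF (15389 genes), 78.6% of genes changed by 1 on the log2 scale and 55.6% of those changed by 0.5 were called, and 10.8% of called genes were unchanged ones. These counts were a single draw, with the spread of each gene as fitted to the real libraries and with genes independent of each other. The shares need not hold for the real libraries, where some genes varied together. The mean chi-square per gene between 2 libraries of a group was 8.73 or more, so that no library was a repeat of another. The pools are the replicates, and the p-values of the comparisons set a difference between groups against the spread between pools. The spread between single animals was not estimated.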

Additional observations from a re-analysis of the deposited data

Results flagged for a closer look

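Of the 27 sets of 4 libraries (9 genes in 3 groups), 2 held a library apart from the other 3 by Dixon's test at 95%, where chance alone gives about 1 in 20. GF replicate 1, the library with the fewest counts, had 117 CPM of Mapk3 and the other GF libraries had 135 to 138 CPM, and without it the log2 fold change in GF was -0.40. CON replicate 3 had 6.31 CPM of Dusp5 and the other CON libraries had 8.34 to 8.65 CPM. In exGF the 195 CPM of Mapk3 in GFR4 did not pass this test.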

How the results depend on the processing

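The number of the 9 genes called in GF against CON was 3 with no filter on low counts (Dusp6, Dusp1 and Mapk3), 4 by DESeq2 (these and Spry4), 2 with the multiply aligned share as a covariate and 1 to 2 with each library left out. In exGF it was 0 under every alternative in both comparisons. CON and GF libraries of the same number did not deviate together (r of -0.05 to 0.03 over 4 pairs), and the fit with the replicate block called 2 of the 9 genes (Dusp6 and Dusp1) and 5 of the 114 pathway genes. Pathway genes called in GF were 9 with no filter, 8 by DESeq2, 0 in a single fit of 12 libraries and 0 to 8 with each library left out. All genes called in GF were 39, and 221 with no filter, 198 by DESeq2, 78 with the covariate and 27 to 60 with each library left out. In exGF against CON they were 11, and 48 with no filter, 7 with at least 10 counts in every library, 60 by DESeq2 and 17 without both libraries with high striatal markers. Against GF they were 0, and 32 with no filter, 21 by DESeq2, 3 with the covariate, 2 in a single fit of 12 libraries and 0 to 7 with each library left out. No paired analysis was possible for exGF because its columns were not matched to numbered samples. The sign turned in some small log2 fold changes of exGF. Against CON, Spred1 was -0.136 to 0.022 with each library left out (0.022 without GFR3) and 0.012 without both libraries with high striatal markers, and Spred2 was -0.032 without both. Against GF, Spred1 was 0.054 with the covariate, Dusp4 -0.36 to 0.016 (0.016 without GF replicate 4), Dusp5 -0.386 to 0.004 (0.004 without GFR3) and Mapk3 -0.108 to 0.175 (-0.108 without GFR4) with each library left out. The cause was not tested. Depth limits Dusp4 and Dusp5 most, with 97 to 433 counts per library.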
